A study of Mus musculus with 24 samples.

Results

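Srebf2, Scap, Insig1, Insig2, Mylip, Stard4 and Lrp1 are genes of sterol sensing and LDL uptake. They were chosen by symbol, and all 7 were found among the 56205 genes counted in RNA-Seq of whole mouse liver. C57BL/6J mice, young adults when the diets began, received a high-fat diet named FFD in the labels, or a control diet, for 20 weeks. The study's methods describe the high-fat diet as rich in palm oil fat, fructose and cholesterol, and the control diet as its matched diet. No mouse of either group carried an engineered allele or received a drug, and each diet had 12 libraries of poly(A) RNA, 1 per mouse. The comparison asks which genes of the sterol-sensing machinery differed in liver RNA after a cholesterol-rich diet.

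Liver cells read their own cholesterol in the membrane of the endoplasmic reticulum. SCAP escorts the transcription factor SREBP2, the product of Srebf2, to the Golgi when sterols are low. There it is cut and released to switch on genes of cholesterol synthesis and lipoprotein uptake. When sterols are plentiful, INSIG1 and INSIG2 hold SCAP back in the endoplasmic reticulum. MYLIP, also called IDOL, is a ubiquitin ligase that marks lipoprotein receptors for degradation and is induced by LXR, a nuclear receptor for oxidised sterols. STARD4 is a soluble protein that carries cholesterol between membranes, and its gene is a target of SREBP2. LRP1 is a large receptor that takes up remnant lipoproteins and many other ligands.

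The study used both sexes, but the labels do not give the sex of a library. Libraries are numbered 1 to 12 within each diet, and 2 sets of numbers differed in sex-linked transcripts. In replicates 1 to 6 of both diets, Xist ranged from 2664 to 6285 counts per library, with no count of the Y-linked Ddx3y. Libraries numbered 7 to 12 had 0 to 3 counts of Xist and 448 to 1016 of Ddx3y. By these transcripts, replicates 1 to 6 were from females and replicates 7 to 12 from males. Results below are given over all libraries and within these sets. Depth was 16490817 to 21213070 counts per high-fat library and 14468418 to 22112552 per control library. Levels are given as CPM, the count of a gene relative to a library total scaled by edgeR's TMM method. The TMM factors stood apart in control replicate 10, with the lowest factor of 0.679, and in high-fat replicate 9, with the highest of 1.341. Without these 2 libraries, 3 members were called lower, as with them, and over all tested genes 782 were called lower, against 894 with them.

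Srebf2 (ENSMUSG00000022463) lies on chromosome 15 at 82147181 to 82205379 in GENCODE M21, an annotation of GRCm38. In the same annotation, Scap (ENSMUSG00000032485) spans 110333288 to 110384950 on chromosome 9. Insig1 (ENSMUSG00000045294) spans 28071363 to 28078662 on chromosome 5 and Insig2 (ENSMUSG00000003721) spans 121304353 to 121332589 on chromosome 1. Mylip (ENSMUSG00000038175) spans 45389742 to 45412022 on chromosome 13. Lrp1 (ENSMUSG00000040249) spans 127538161 to 127621148 on chromosome 10. All 7, Stard4 (ENSMUSG00000024378) included, are protein-coding. Scap shares 985 exon bases, 13.2% of its exon length, with 5830462I19Rik on the opposite strand. That gene had a median of 3 counts per library, against 1558 to 4687 for Scap on the control diet, and whether the counting used strand is not given in the sources used here.

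Of the members, Srebf2 and Insig1 varied together from library to library, as did Insig1 and Stard4, and Insig2 and Mylip. The promoters of these genes are shown where one was found. RefSeq promoter windows of GRCm38.p6, from 250 bases before a transcript start to 50 bases after it, were found for 6 of the 7 members. None was found for Stard4. Capitals mark every match, on either strand, to the CCAAT box (CCAAT), the GC box (GGGCGG) and the TATA box (TATAAA), the usual docking letters of NF-Y, SP1 and the TATA-binding protein. The Srebf2 window is chr15:82147019-82147318 on the plus strand and the Insig1 window is chr5:28071162-28071461 on the plus strand. Insig2 has 3 windows in this table, of which the most upstream, chr1:121332540-121332839 on the minus strand, is printed. The Mylip window is chr13:45389492-45389791 on the plus strand.
Srebf2: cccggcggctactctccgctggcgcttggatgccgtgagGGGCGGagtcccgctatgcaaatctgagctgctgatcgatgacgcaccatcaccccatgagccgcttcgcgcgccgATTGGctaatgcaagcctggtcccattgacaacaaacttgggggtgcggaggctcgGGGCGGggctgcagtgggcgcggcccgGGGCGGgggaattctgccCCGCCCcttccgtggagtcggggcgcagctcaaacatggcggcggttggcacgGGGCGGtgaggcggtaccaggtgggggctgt
Insig1: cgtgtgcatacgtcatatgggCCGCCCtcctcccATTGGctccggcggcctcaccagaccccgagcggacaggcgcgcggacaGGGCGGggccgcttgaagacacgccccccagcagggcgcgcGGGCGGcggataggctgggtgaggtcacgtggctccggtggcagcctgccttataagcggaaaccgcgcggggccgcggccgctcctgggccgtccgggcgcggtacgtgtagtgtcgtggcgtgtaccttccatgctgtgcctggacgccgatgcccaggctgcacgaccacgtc
Insig2: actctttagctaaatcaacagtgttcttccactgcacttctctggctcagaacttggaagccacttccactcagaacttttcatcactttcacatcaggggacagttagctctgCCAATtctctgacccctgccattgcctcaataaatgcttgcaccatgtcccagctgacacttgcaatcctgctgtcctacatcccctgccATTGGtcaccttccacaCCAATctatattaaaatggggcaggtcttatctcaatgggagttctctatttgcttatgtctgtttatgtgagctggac
Mylip: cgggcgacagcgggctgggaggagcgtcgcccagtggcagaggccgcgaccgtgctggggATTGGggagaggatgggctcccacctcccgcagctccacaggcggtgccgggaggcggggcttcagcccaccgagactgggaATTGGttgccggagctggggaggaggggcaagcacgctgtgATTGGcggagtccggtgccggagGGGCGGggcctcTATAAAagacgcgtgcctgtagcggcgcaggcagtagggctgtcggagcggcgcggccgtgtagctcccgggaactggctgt

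The Srebf2 window held 5 GC boxes and 1 CCAAT box, and the Insig1 window held 3 GC boxes and 1 CCAAT box. The printed Insig2 window held 3 CCAAT boxes and no GC box, and the Mylip window held 3 CCAAT boxes, 1 GC box and a TATA box that began 32 bases before the start. The other 2 Insig2 windows each held 1 GC box and no CCAAT box. A CCAAT box was found in 37.4% of the 32851 promoter windows in the table, a GC box in 35.7% and a TATA box in 13.6%, so these letters are common. The core of the sterol regulatory element to which SREBP2 binds was searched as TCACNCCAC on both strands. It was found in 1.24% of all windows and in no window of the 6 members, which says only that these letters are not in these 300 bases. Among the cholesterol synthesis enzymes with a window that are SREBP2 targets, the same search matched only Hmgcs1. A window without a match therefore does not show that a gene is no target.

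Compared per kilobase of exon, the control livers ordered the members from Insig1 at 60.8 ± 16.6 CPM per kilobase (SD, n = 12) through Lrp1 at 47.9 ± 8.64, Insig2 at 36.3 ± 8.28, Scap at 25.5 ± 5.3, Stard4 at 16.8 ± 3.69 and Srebf2 at 8.15 ± 1.47 to Mylip at 4.48 ± 1.19. The transcription factor and the ubiquitin ligase were thus the least abundant transcripts, and the sterol-responsive anchor INSIG1 the most abundant. Of the neighbours in this order, only Stard4 and Srebf2 had ranges that did not overlap. On the high-fat diet the order was Lrp1 at 41.5 ± 6.78 CPM per kilobase, Insig1 at 34.2 ± 20.1, Insig2 at 33.9 ± 12.5, Scap at 15.8 ± 3.21, Stard4 at 6.67 ± 3.1, Srebf2 at 6.56 ± 1.08 and Mylip at 5.67 ± 0.861. There all neighbouring ranges overlapped. Insig1 exceeded Insig2 in 5 of the 12 high-fat libraries, and Stard4 exceeded Srebf2 in 4 of 12, against 12 of 12 on the control diet.

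Stard4, Insig1 and Scap were lower on the high-fat diet, by 2.52-fold, 1.77-fold and 1.61-fold. Srebf2, Lrp1, Insig2 and Mylip did not pass the call rule, and of the 7 only Mylip had a higher fitted level on the high-fat diet with TMM, while Insig2 and Lrp1 did too with library totals. A call needed a log2 fold change beyond 0.5 in either direction and a Benjamini-Hochberg adjusted p no higher than 0.01 over 17913 genes (edgeR's quasi-likelihood test). By this rule 3 of 7 members were lower, where 4.99% of all tested genes were lower. The rule called 0 of 7 members higher with edgeR and 0 with DESeq2, where 13.2% of all tested genes were higher. At an unadjusted p under 0.05, edgeR and DESeq2 each had 1 member higher, Mylip, and 4 lower. Many genes pass loose cutoffs here. At an adjusted p of at most 0.05 with no fold threshold, edgeR had 3709 of the 17913 tested genes higher and 3388 lower. In whole liver, fewer cells of a type and less RNA per cell cannot be told apart.

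**Figure D1:**
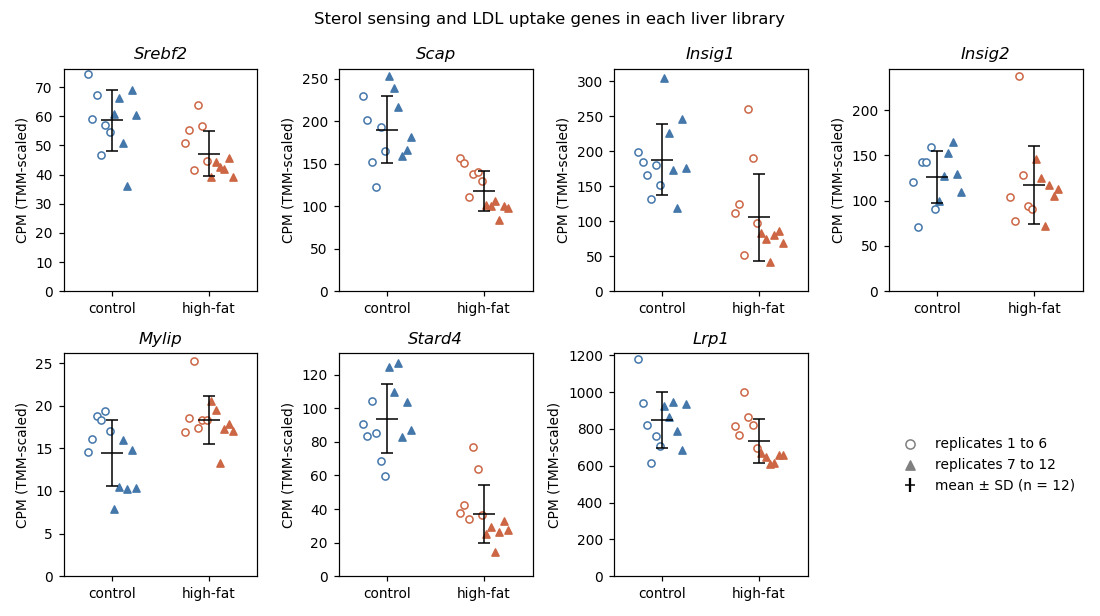
Level of each member (y axis, CPM of the TMM-scaled library, from 0) in the 12 control and 12 high-fat libraries, with replicates 1 to 6 as open circles and 7 to 12 as triangles; bars give the mean ± SD. For Stard4, Insig1, Scap and Lrp1 the triangles of the diets do not overlap, while the open circles do. Of all tested genes, 22.3% did not overlap in replicates 7 to 12.

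The sterol carrier Stard4 had the largest difference of the 7. Its level on the high-fat diet was 14.2 CPM in the lowest library, 33.4 at the median and 77.1 in the highest, against 59.7, 88.8 and 127 on the control diet. Of the 12 high-fat libraries, 10 lay below every control library, and all 12 lay below the control median. The exceptions were replicates 4 and 5 of the high-fat diet. The means were 37.2 ± 17.3 CPM and 93.9 ± 20.6 CPM (SD, n = 12), and the log2 fold change was -1.33 (SE 0.196, adjusted p = 1.19e-05, edgeR's quasi-likelihood test).

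Scap, the escort of SREBP2, had lower counts in the high-fat livers too. Its level ran from 84.2 CPM through a median of 108 to 157 in the high-fat livers and from 123 through 187 to 253 in the control livers. In 7 high-fat libraries Scap lay below every control library, and in all 12 below the control median. The means were 118 ± 23.9 CPM and 190 ± 39.5 CPM (SD, n = 12), with a log2 fold change of -0.69 (SE 0.12, adjusted p = 7.83e-05, edgeR's quasi-likelihood test). Scaled by library totals alone, the log2 fold change was -0.41 and fell short of the fold threshold. That scaling moved the median of all tested genes from -0.03 to 0.26, and relative to this median Scap was at -0.66 with TMM and -0.67 with library totals. With TMM 72.6% of all calls were higher, and with library totals 94.4%.

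The SCAP anchor Insig1 was lower on the high-fat diet with a wide spread between livers. On the high-fat diet its lowest, median and highest levels were 42.0, 84.5 and 261 CPM, and on the control diet they were 119, 178 and 305 CPM. Of the high-fat libraries, 9 lay below every control library, while replicates 4 and 5, at 261 and 190 CPM, lay above the control median. The means were 106 ± 62.1 CPM and 188 ± 51.2 CPM (SD, n = 12), and the log2 fold change was -0.83 (SE 0.231, adjusted p = 0.00591, edgeR's quasi-likelihood test). The call rested on single libraries. Without any 1 of high-fat replicates 7, 8, 10, 11 and 12 or control replicates 7, 8 and 11, the adjusted p lay between 0.0101 and 0.0129, at log2 fold changes of -0.81 to -0.74. With library totals the log2 fold change was -0.58 (adjusted p = 0.0341, edgeR), and relative to the median of all genes it was -0.84, against -0.80 with TMM.

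Insig2, the second SCAP anchor, had similar ranges on both diets. Its lowest, median and highest levels were 72.4, 109 and 238 CPM on the high-fat diet and 71.2, 128 and 165 CPM on the control diet. High-fat replicate 3 alone lay above every control library. The means were 118 ± 43.3 CPM and 126 ± 28.8 CPM (SD, n = 12), and the log2 fold change of -0.10 (SE 0.161, adjusted p = 0.66, edgeR) had the opposite sign, 0.19, with library totals.

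The ratio of Insig1 to Insig2 within a library does not depend on how libraries are scaled. It ran from 0.218 through a median of 0.752 to 2.03 in the high-fat livers and from 0.719 through 1.62 to 3.06 in the control livers. The log2 ratio was -0.26 ± 0.918 and 0.57 ± 0.601 (SD, n = 12), a difference of -0.84 (two-sided permutation test with 100000 resamples, p = 0.0136). Over all libraries, control livers thus held more Insig1 than Insig2 counts at the median, and high-fat livers fewer. By set, the high-fat median was 1.31 in replicates 1 to 6, against a control median of 1.39. In replicates 7 to 12 these medians were 0.604 and 1.69, so fewer Insig1 counts at the high-fat median held only there. Within replicates 1 to 6, high-fat replicate 3 was at 0.218 and the other high-fat libraries at 1.07 to 2.03. The difference of the log2 ratio in replicates 1 to 6 was -0.40 (exact permutation test, two-sided, p = 0.595, n = 6 per diet). For replicates 7 to 12 it was -1.27 (p = 0.00433, the same exact permutation test).

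Srebf2, which encodes the factor that SCAP and the INSIG proteins control, was lower on the high-fat diet by less than the fold threshold. It ran from 39.2 CPM through a median of 44.5 to 63.7 in the high-fat livers and from 36.1 through 59.8 to 74.4 in the control livers. Of the high-fat libraries, 11 lay below the control median, but the lowest library of all was control replicate 10. The means were 47.1 ± 7.79 CPM and 58.6 ± 10.6 CPM (SD, n = 12), and the log2 fold change was -0.31 (SE 0.102, adjusted p = 0.0162, edgeR). It was -0.047 with library totals, and relative to the median of all genes it was -0.28 with TMM and -0.31 with library totals.

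Srebf1 encodes SREBP1, the relative that drives fatty acid synthesis and shares SCAP with SREBP2. Its log2 fold change was 0.38 (SE 0.189, adjusted p = 0.115, edgeR), at 586 ± 190.0 CPM in the high-fat livers and 451 ± 154 CPM in the control livers (SD, n = 12). The ratio of Srebf2 to Srebf1 counts ran from 0.0613 through a median of 0.0845 to 0.128 in the high-fat livers and from 0.0847 through 0.128 to 0.284 in the control livers. The high-fat median lay just below the lowest control library. The difference of the log2 ratio was -0.70 (two-sided permutation test with 100000 resamples, p = 0.00058). In replicates 1 to 6 it was -0.95 (exact permutation test, two-sided, p = 0.0108, n = 6 per diet) and in replicates 7 to 12 it was -0.45 (p = 0.0368, the same exact permutation test).

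**Figure D2:**
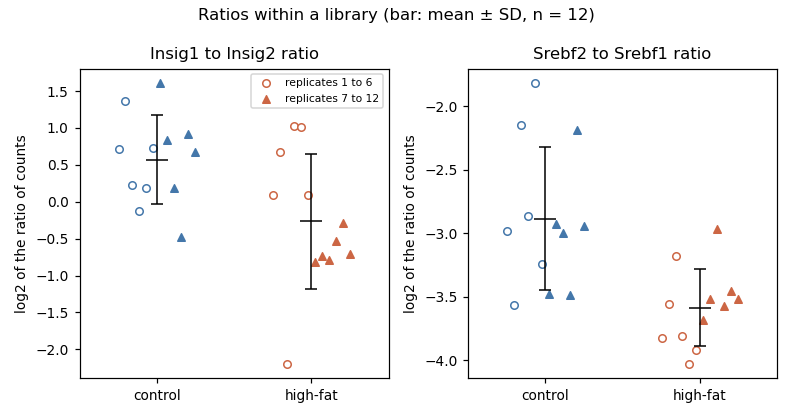
log2 ratio of counts within a library (y axes) of Insig1 to Insig2 (left) and Srebf2 to Srebf1 (right), by diet, with the mean ± SD of 12 libraries. The Insig1 to Insig2 ratio of replicates 7 to 12 (triangles) lay between 0.566 and 0.821 on the high-fat diet on a linear scale; the Srebf2 to Srebf1 ratio was lower on the high-fat diet in both sets of replicates.

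Mylip, the ubiquitin ligase, was the member at a higher level on the high-fat diet. Its lowest, median and highest levels were 13.3, 18.1 and 25.3 CPM on the high-fat diet and 7.84, 15.4 and 19.4 CPM on the control diet. In 3 high-fat libraries it lay above every control library, and in 11 above the control median. The means were 18.3 ± 2.78 CPM and 14.5 ± 3.85 CPM (SD, n = 12), and the log2 fold change of 0.34 (SE 0.127, adjusted p = 0.0366, edgeR) passed neither threshold. With library totals it was 0.60 (adjusted p = 0.00135, edgeR) and passed both. Relative to the median of all genes, Mylip was at 0.37 with TMM and 0.34 with library totals.

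The receptor gene Lrp1 had the highest counts of the members. It ran from 612 CPM through a median of 682 to 1001 in the high-fat livers and from 612 through 842 to 1182 in the control livers, so the ranges overlapped nearly whole. The means were 735 ± 120.0 CPM and 848 ± 153 CPM (SD, n = 12). The log2 fold change was -0.21 (SE 0.104, adjusted p = 0.116, edgeR), and it was 0.068 with library totals.

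The diet differences of the members were larger in replicates 7 to 12 than in replicates 1 to 6 for Stard4, Insig1 and Scap. For Stard4 the log2 fold change was -2.02 in replicates 7 to 12 (adjusted p = 2.43e-06, edgeR) and -0.74 in replicates 1 to 6 (adjusted p = 0.02). For Insig1 it was -1.499 (adjusted p = 0.000117, edgeR) and -0.27 (adjusted p = 0.565). For Scap it was -1.03 (adjusted p = 3.51e-05, edgeR) and -0.36 (adjusted p = 0.0987). Each of these genes had lower fitted levels on the high-fat diet in both sets.

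The difference between the sets was tested as the interaction of diet and set, which 10.2% of all tested genes passed at an adjusted p of at most 0.05. Stard4 differed by -1.28 on the log2 scale (SE 0.28, adjusted p = 0.00434), Insig1 by -1.24 (SE 0.376, adjusted p = 0.0349) and Scap by -0.68 (SE 0.192, adjusted p = 0.0229, edgeR's quasi-likelihood test). The Stard4 difference also passed with library totals, while that of Insig1 was -0.93 (adjusted p = 0.0964, edgeR) and that of Scap -0.34 (adjusted p = 0.305). For Mylip, whose log2 fold change was 0.61 in replicates 7 to 12 (adjusted p = 0.00879, edgeR) and 0.15 in replicates 1 to 6, the difference of 0.46 had an adjusted p of 0.164 with TMM. With library totals the Mylip difference was 0.78 (adjusted p = 0.0147, edgeR). Srebf2, Insig2 and Lrp1 had differences of -0.25, -0.22 and -0.40 with adjusted p of 0.459, 0.739 and 0.171 (edgeR).

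**Figure D3:**
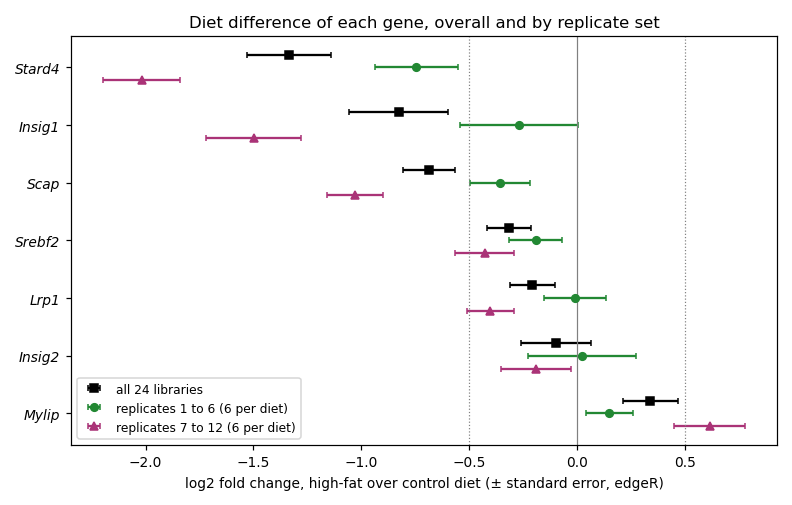
log2 fold change of each member, high-fat over control diet (x axis, with ± 1 standard error from edgeR), over all 24 libraries (black squares), replicates 1 to 6 (green circles) and replicates 7 to 12 (purple triangles); dotted lines mark the fold threshold of 0.5 in either direction. Stard4, Insig1 and Scap have their largest differences in replicates 7 to 12, at -2.02, -1.499 and -1.03.

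Within replicates 7 to 12, 4 of the 7 members passed the call rule, 3 of them lower and Mylip higher, where 22.3% of all tested genes passed in either direction. Within replicates 1 to 6, edgeR called 0 of 7, where 3.78% of all genes passed. At an unadjusted p under 0.05, edgeR had 2 members lower there and 0 higher, and by the call rule DESeq2 called 1 lower. The share of all genes at that looser cutoff is not given here. In replicates 7 to 12 the diets did not overlap in Stard4, at 14.2 to 32.8 against 82.7 to 127 CPM. The diets were also apart in Insig1, at 42.0 to 86.1 against 119 to 305 CPM, in Scap, at 84.2 to 106 against 159 to 253 CPM, and in Lrp1, at 612 to 668 against 686 to 949 CPM. Of all tested genes, 22.3% did not overlap in replicates 7 to 12 and 5.9% in replicates 1 to 6, where every member overlapped. Lrp1 had a log2 fold change of -0.40 in replicates 7 to 12 (adjusted p = 0.00921, edgeR), below the fold threshold.

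The hepatocyte markers in these livers were lower and those of macrophages and bile duct cells higher on the high-fat diet. Of 10 hepatocyte markers, 8 were lower, with a median log2 fold change of -0.77, and their summed level was 41400 to 99570 CPM in the high-fat livers and 89180 to 142900 CPM in the control livers. Alb made up most of this sum, with a mean of 45200 CPM in the high-fat livers and 74300 CPM in the control livers. Of 15 macrophage markers, 11 were higher (median 1.69), with sums of 1047 to 2195 and 239.1 to 937.3 CPM. Of 13 markers of stellate cells or fibroblasts, 8 were higher (median 0.66, sums of 535.1 to 1113 and 209.8 to 556.1 CPM), and of 6 cholangiocyte markers, 5 were higher (median 2.66, sums of 31.6 to 886.8 and 27.28 to 131.4 CPM). Spp1 stands in both the macrophage and the cholangiocyte list and made up most of the latter sum, at 26.3 to 729 CPM on the high-fat diet. Krt19, another cholangiocyte marker, had a median of 2.64 CPM and a maximum of 48.1 CPM on that diet. Of 8 sinusoidal endothelial markers, 1 was higher (median -0.02, sums of 227.4 to 430.5 and 201 to 434 CPM). Of 6 T cell markers, edgeR and DESeq2 each called 0, and at an unadjusted p under 0.05 edgeR had 1 higher and 1 lower (sums of 2.287 to 7.777 and 2.138 to 9.688 CPM). No marker was at 0 in every library. The median of the hepatocyte markers was close to the log2 fold changes of Insig1 and Scap, and the part of cell makeup in the members' differences was not tested. The interaction of diet and set passed in 2 of the 10 hepatocyte markers (median -0.60) and in 11 of the 15 macrophage markers (median 1.44).

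Other genes of the pathway were counted in 6 lists, which were chosen with earlier results of these data known. The median log2 fold change of all tested genes was -0.03 with TMM, on which these values rest, and 0.26 with library totals, so list medians near 0 have no fixed sign. Among 20 enzymes of cholesterol synthesis that are targets of SREBP2, 18 were lower, with a median of -1.29. Sqle, which encodes squalene epoxidase, was at -2.97 (SE 0.388), Idi1 at -2.53 (SE 0.258), Cyp51 at -2.06 and Tm7sf2 at -1.99. Hmgcs1, which did not pass, was at -0.42, and it was named after its value was seen.

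In the list of SREBP processing and export from the endoplasmic reticulum, 4 of 15 genes were lower and the other 11 were not called (median -0.14). Paqr3, which encodes a Golgi protein that binds SCAP and SREBP, was at -0.82 (adjusted p = 0.000114, edgeR). Sec24a at -0.72, Sar1b at -0.66 and Sec23a at -0.50 encode parts of the COPII coat, which forms the vesicles that carry SCAP to the Golgi. In the list of sterol-dependent degradation at the endoplasmic reticulum, 1 of 15 was lower and 1 higher (median -0.17). These were March6 at -0.73 (adjusted p = 0.000132, edgeR) and Rnf145 at 0.51 (adjusted p = 0.00515), both genes of ubiquitin ligases in that membrane.

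Of 22 genes of lipoprotein receptors and their handling, 1 was lower and 2 were higher (median -0.03). The genes that were higher were Sorl1 at 1.004 and Lrp11 at 0.63.

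Of 17 genes of intracellular sterol transport, where STARD4 also acts, 2 were higher and 2 lower (median -0.05). Gramd1b, a gene of the Aster proteins that move cholesterol from the plasma membrane, was at 2.30 (SE 0.19) and Soat1, which encodes an enzyme that esterifies cholesterol, was at 1.22 (SE 0.211). Gramd1c, of the same Aster family, was at -0.80 and Osbpl8 at -0.67. Of 10 LXR targets, the class to which Mylip belongs, 3 were higher and the other 7 were not called (median 0.36). Abcg1, a cholesterol exporter, was at 1.81 (SE 0.152), Abcg5, a subunit of a biliary sterol exporter, was at 0.74, and Myo1c was at 0.57.

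**Figure D4:**
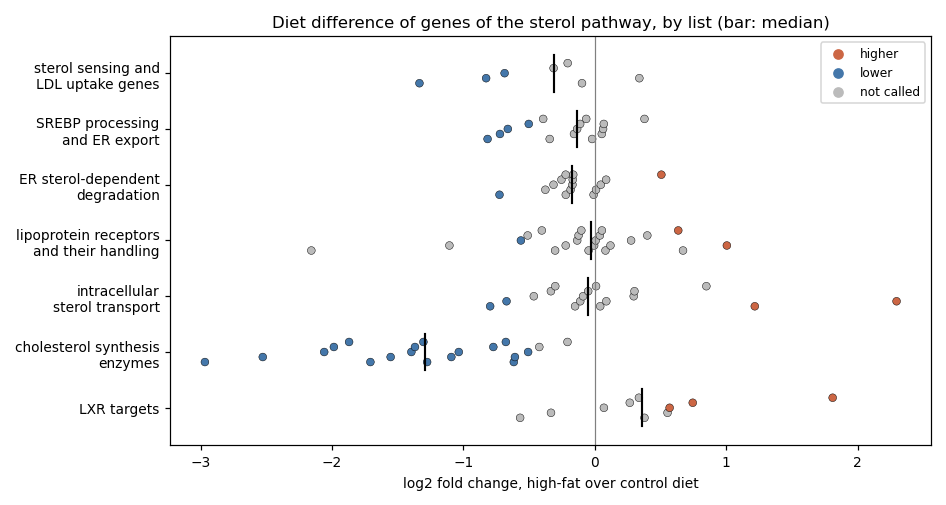
log2 fold change of each gene, high-fat over control diet (x axis), for the 7 members (top row) and the 6 lists of pathway genes; each point is a gene, coloured by its call, and the vertical bar is the median of the row. The enzymes of cholesterol synthesis lie to the left, with a median of -1.29, and the LXR targets to the right of the other lists, with a median of 0.36.

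Library-to-library variation was then compared between members, after the mean of each diet and replicate set was subtracted from log2(CPM + 1), over 24 libraries. Of 21 pairs of members, 3 had a Benjamini-Hochberg adjusted p under 0.05 by both Pearson's r and Spearman's rho. Srebf2 and Insig1 had r = 0.71 (permutation p = 6e-05, adjusted 0.00126) with a rho of 0.75 (permutation p = 1e-04, adjusted 0.0021). Leaving out the 2 libraries most distant from the Srebf2 median gave r = 0.68. Within the high-fat libraries r was 0.81, and within the control libraries 0.82.

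Insig1 and Stard4 had r = 0.77 (permutation p = 0.00013, adjusted 0.00136) with a rho of 0.66 (permutation p = 0.00254, adjusted 0.0267), and leaving out the 2 libraries most distant in Insig1 gave r = 0.71. Within the diets, r was 0.89 in the high-fat livers and 0.46 in the control livers. Insig2 and Mylip had r = 0.63 (permutation p = 0.00096, adjusted 0.00672) with a rho of 0.57 (permutation p = 0.0051, adjusted 0.0357), and leaving out the 2 libraries most distant in Insig2 gave r = 0.57. For this pair r was 0.84 in the high-fat livers and 0.47 in the control livers. The INSIG genes themselves had r = -0.28 (permutation adjusted p = 0.502).

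**Figure D5:**
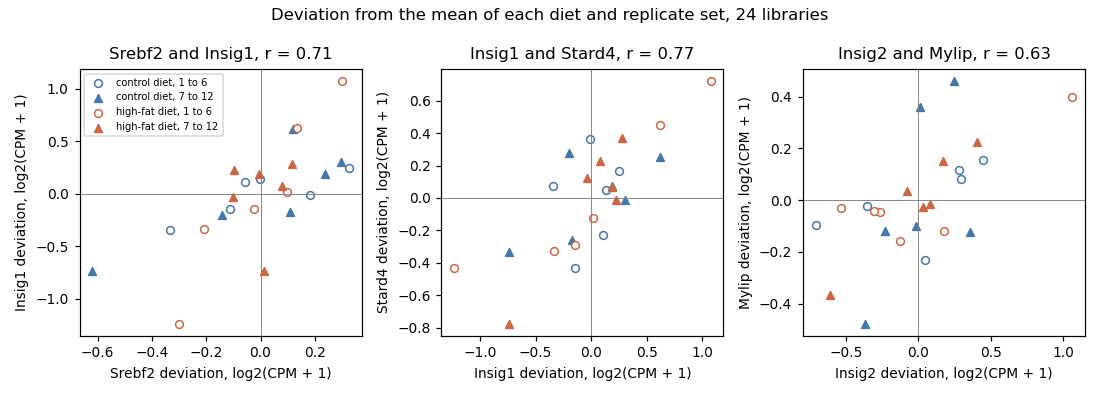
Deviation of each library from the mean of its diet and replicate set, in log2(CPM + 1), for the 3 pairs of members with an adjusted p under 0.05; colour gives the diet and shape the replicate set. Each panel has 24 libraries, with r = 0.71 for Srebf2 and Insig1, 0.77 for Insig1 and Stard4 and 0.63 for Insig2 and Mylip.

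High-fat replicate 4 had the highest level of its diet in Srebf2, at 63.7 CPM, in Insig1, at 261 CPM, and in Stard4, at 77.1 CPM. High-fat replicate 3 had the highest level of its diet in Insig2, at 238 CPM, in Mylip, at 25.3 CPM, and in Lrp1, while its Insig1 was at 51.7 CPM.

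The genes whose deviations were most like each member's were taken from 9653 genes with a mean of at least 100 counts, by Pearson's r over 24 libraries, as a description with no test. For Insig1 they included the cholesterol synthesis genes Sc5d (r = 0.93) and Lss (0.92), and for Srebf2 Ergic1 (0.85) and Glg1 (0.83). For Stard4 they were Adipor2 (0.88), Rnf103 (0.88) and Enpep (0.87). The genes nearest to Scap were Lzts3 (0.86), Slc38a3 (0.85) and Myo18a (0.85), and those nearest to Lrp1 were Vegfa (0.87), Sbf1 (0.85) and Sf3a1 (0.84). Insig2 was most like Itgb3 (0.82), Gucd1 (0.81) and C9orf72 (0.79), and Mylip most like Postn (0.84), Oit3 (0.82) and Clec14a (0.80). These values come from the same libraries and share their depth and scaling.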

How the data were processed

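Whole-liver poly(A) RNA of 24 mice, 12 per diet, was analysed as 1 table. Values are raw read counts by Ensembl gene ID, as the authors deposited them; the submitters' processing notes name bcl2fastq, STAR 2.7.3a and mm10, and the counting program, its annotation and its use of strand are not given in the sources used here. Gene symbols came from GENCODE M21 for 51745 of 56205 IDs; the other 4460 held 0.0723% of counts. Columns carry the library titles, and diets were read from the labels. The other mouse models, human livers and cell cultures of the series were not analysed here.

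The diets were compared by the quasi-likelihood test of edgeR 4.0.16 (R 4.3.3) after TMM scaling, with no other term. Tested were 17913 genes that had 1 or more counts in 12 or more libraries, and p-values were adjusted over all of them (Benjamini-Hochberg). Calls used the study's RNA-Seq thresholds: adjusted p no higher than 0.01, log2 fold change beyond 0.5 in either direction. All 7 members passed the filter. Standard errors were derived from each log2 fold change and its F statistic. Ratios used counts plus 0.5 and permutation tests in scipy 1.17.1, with 100000 resamples or, for 6 libraries against 6, all regroupings (smallest two-sided p 0.00216). Correlations used log2(CPM + 1), and their permutations, in numpy 2.4.6, also had 100000 resamples. Promoters were from RefSeq, GRCm38.p6.

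Alternatives were DESeq2 1.42.0, limma-voom (limma 3.58.1), library totals or DESeq2's size factors, other filters and thresholds, a ratio pseudocount of 5, the replicate number as a block, the replicate set as a covariate, each set alone, and the omission of single libraries. A fit without control replicate 10 and high-fat replicate 9 was added after seeing the data. The genes named were the members, up to 4 called genes per list with the largest change, and the 3 genes most like each member. The results of some other genes that the rule names are not reported here. The members, lists and tests were chosen with earlier results of these data known. P-values of the diet tests set a difference against the spread between mice, which in the main fit includes that between the replicate sets. Precision at low levels is limited by the counts: Mylip had 101 to 391 counts per control library.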

Additional observations from a re-analysis of the deposited data

Results flagged for a closer look

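The diet difference of 3 members differed between replicates 7 to 12 and replicates 1 to 6 by the interaction test, which 10.2% of all tested genes passed. On the log2 scale, replicates 7 to 12 minus replicates 1 to 6, the difference was -1.28 for Stard4, -1.24 for Insig1 and -0.68 for Scap. With library totals, only that of Stard4 of these 3 passed: Insig1 was at -0.93 (adjusted p = 0.0964, edgeR) and Scap at -0.34 (adjusted p = 0.305). The labels do not give the sex of a library. By Xist and Ddx3y the replicate sets differ in sex, and whatever else distinguishes them cannot be told apart from sex.

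A single library stood apart from the other 5 of its diet and replicate set in 2 of 28 groups examined by Dixon's criterion, which chance passes in about 1 group in 20. In both cases it was replicate 3 of the high-fat diet, with Insig2 at 238 CPM and Mylip at 25.3 CPM.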

How the results depend on the processing

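Over all genes, calls were 2372 higher and 894 lower. They were 3827 and 226 with library totals, 3709 and 3388 at an adjusted p of at most 0.05 with no fold threshold, and 520 and 158 in replicates 1 to 6. Requiring 10 or more counts in each library gave 1230 higher, a log2 fold change over 1 gave 216 lower, and replicates 7 to 12 gave 1431 lower. Members called higher numbered 1 with library totals, with the looser threshold and in replicates 7 to 12. Members called lower numbered 1 with library totals, 1 at a log2 fold change over 1 and 0 in replicates 1 to 6 by edgeR. With library totals, log2 fold changes were -0.41 for Scap and -0.58 for Insig1, no longer called, 0.60 for Mylip, then called, and 0.19 for Insig2 and 0.068 for Lrp1, with the sign turned; the interactions were -0.34 for Scap, -0.93 for Insig1 and 0.78 for Mylip, and those of Srebf2, 0.085, and Insig2, 0.13, turned sign. The looser threshold added Srebf2 at -0.31 and Mylip at 0.34. A log2 fold change over 1 removed Scap at -0.69 and Insig1 at -0.83. In replicates 1 to 6, Scap at -0.36, Insig1 at -0.27 and Stard4 at -0.74 lost their calls (the cause was not tested), Insig2 was at 0.021 and the Insig1 to Insig2 log2 ratio differed by -0.40. In replicates 7 to 12, Mylip was called at 0.61. With each library left out in turn, Insig1 ranged from -1.03 to -0.74 and lost its call in 8 of 24 cases, and no other member's call changed. For the shifts with library totals, the change of the median of all genes from -0.03 to 0.26 shows the size of the rescaling; other causes were not tested. DESeq2, limma-voom, DESeq2's size factors, the other filters and the set covariate changed no member's call.

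Replicate numbers were not taken to pair the mice: the correlation of same-numbered libraries ran from -0.09 to 0.54, and 2 of 12 correlated best with their own number. With the number as a block, Stard4 was at -1.42, Insig1 at -0.98 and Scap at -0.68, and 3 members were called lower, as without it; over all genes 2063 were higher and 844 lower.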
